A study of Mus musculus with 4 samples.

Results

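The endoplasmic reticulum (ER) genes described here are 48 genes chosen by symbol for the steps through which a secreted or membrane protein passes: targeting by the signal recognition particle, translocation, removal of the signal peptide, N-glycosylation, folding, the unfolded protein response and degradation. All 48 were found by gene symbol in each of the 4 libraries, with 1 entry each, among 22752 symbols used. Translating ribosome affinity purification recovers RNA on ribosomes that carry a tag, and here the tagged ribosomes came from cells in which Cre had acted in NpyCre/+;TRAPlox/lox mice, so that the Npy gene drove the recombination. The immunoprecipitate (IP) of the amygdala was set against the total input RNA of the same tissue and genotype, with 2 libraries each; a library was made from 200 ng of RNA of 3 pooled mice. Every library came from animals of this 1 genotype, with no treatment given in the labels, and no Cre-negative or mock precipitation was analysed here. The labels do not give the age or sex of the mice.

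The signal recognition particle binds a signal sequence as it leaves the ribosome and brings the ribosome to the ER membrane, where the chain enters the Sec61 channel. Signal peptidase and oligosaccharyltransferase act on the chain as it enters, and BiP, GRP94, the lectins calnexin and calreticulin and the protein disulfide isomerases help it fold. When unfolded proteins build up, the sensors IRE1, ATF6 and PERK start the unfolded protein response, and chains that fail to fold are returned to the cytosol for degradation by the proteasome. Neurons that release peptides, such as those that make neuropeptide Y, send much of their cargo through this pathway.

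Values are FPKM, fragments per kilobase of transcript and 1000000 mapped fragments, so levels of different genes are compared per length. Read totals are not given. The authors' confidence limits lay a median of 6.29% and 6.77% from the value of an ER gene in IP replicates 1 and 2, against 7.26% and 7.10% in input replicates 1 and 2, with the widest limits at Ern1 in IP and Sec61g in input. The IP libraries carried the markers of the targeted cells: Npy stood at 1240.4 and 1167 FPKM in IP, against 105 and 99.2 FPKM in input, and all 6 listed markers of Npy and GABAergic neurons were higher in IP, with summed levels of 6776 and 6974 FPKM against 680.5 and 652 in input. Of the 35 listed cell type markers tested, 26 were lower in IP, all of them markers of other cell types. The summed FPKM of the glutamatergic list was 217 and 141 in IP against 346 and 359 in input, of the astrocyte list 27.7 and 34.0 against 171 and 184, of the oligodendrocyte list 76.8 and 87.3 against 373 and 346, and of the microglial list 2.33 and 1.65 against 31.5 and 28.8. For the endothelial list it was 1.10 and 1.40 in IP against 6.20 and 4.73 in input, for the mural list 3.51 and 4.78 against 26.6 and 29.1, and for the choroid plexus list 13.2 and 4.17 against 184 and 14.2; Folr1 was the marker listed at 0 in a library. These sums compare RNA recovered in IP with the input RNA of the same tissue, and they do not count cells. The part that this difference in cell type content had in the ER gene values was not tested.

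On the deposited scale, most ER genes were more abundant in IP than in input. Of 47 tested, 30 were higher (63.8%) and 3 lower (6.38%) at an adjusted p under 0.05 (limma on log2(FPKM + 1), adjusted over all genes tested), where 37.0% of all 12416 genes tested were higher and 33.9% lower. The median log2 change of the 47 was 0.34, against 0.025 for all genes. Both IP values lay above both input values for 34 of the 47 and below them for 7, where these shares were 45.0% and 41.4% of all genes tested. Summed over the 48 genes, the level was 1780 and 1873 FPKM in IP, against 1243 and 1257 FPKM in input, or 0.423% and 0.449% of the FPKM of all entries used in IP, against 0.375% and 0.380% in input. The changes were modest in size: Ostc and Atf4, with 2.09 and 2.01 times the input mean in IP, were the largest of the list. With 1 library left out the number lower was 0 to 2; the 0 came without input replicate 2, where 1 passed at an unadjusted p of 0.05 in limma.

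**Figure D1:**
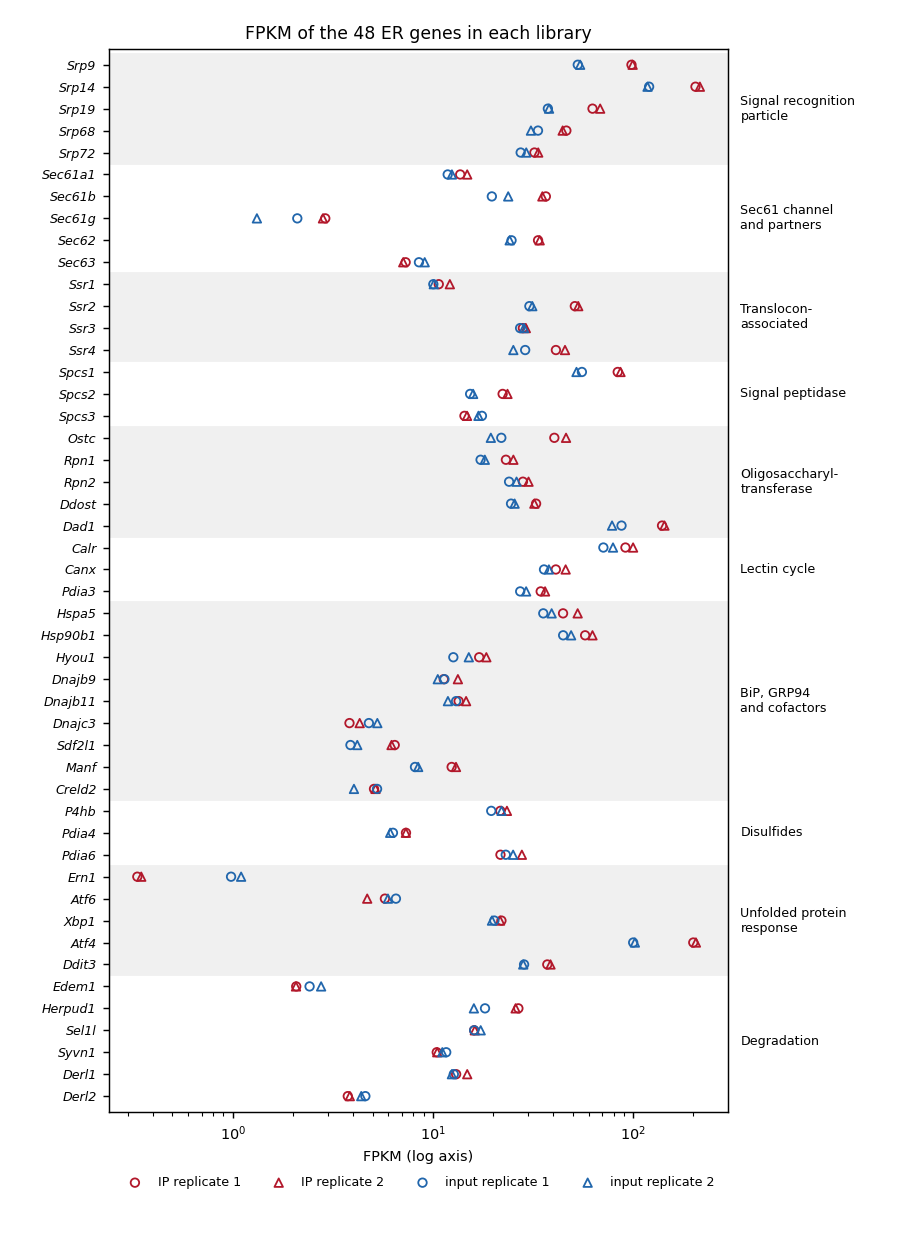
FPKM of each of the 48 ER genes on a log axis, grouped by step from targeting (top) to degradation (bottom), with circles for replicate 1 and triangles for replicate 2, red for IP and blue for input. Srp14 and Atf4 have the highest levels in both groups and Ern1 the lowest, and for 34 of the 47 tested genes both red symbols lie to the right of both blue ones.

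The direction of the smaller changes rested on the scaling between libraries. The deposited FPKM of all entries, failed and small RNA entries included, summed to 423985 and 419349 in IP, against 334759 and 335119 in input, and rescaling each library to the same sum moved the median of all genes to -0.29. On that scale 14 of the 47 ER genes were higher (29.8%) and 10 lower (21.3%), where 17.9% of all genes were higher and 53.8% lower. The median log2 change of the ER genes was then 0.0093. The median of the ER genes relative to that of all genes was 0.31 as deposited and 0.30 after rescaling. It was 0.32 with median-of-ratios size factors, 0.21 after correction for transcript length and 0.12 with quantile normalization. The 14 genes that passed upward in the main test and in all 15 alternatives were Srp9, Srp14, Srp19, Sec61b, Ssr2, Ssr4, Spcs1, Spcs2, Ostc, Dad1, Sdf2l1, Manf, Atf4 and Herpud1.

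**Figure D2:**
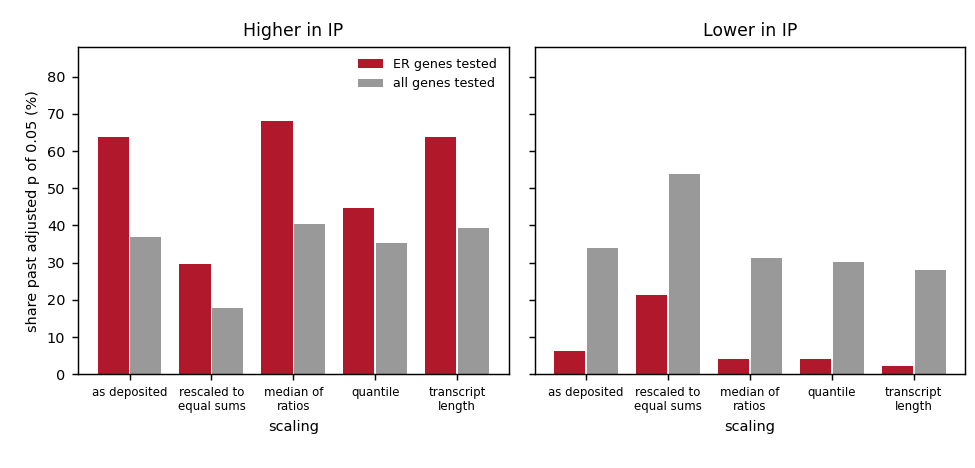
Share of genes past an adjusted p of 0.05 that were higher (left panel) or lower (right panel) in IP, for the 47 ER genes tested (red) and all genes tested (grey), under the deposited scaling and 4 others. The red bar exceeds the grey bar for higher genes and falls short of it for lower genes under each of the 5, at 63.8% against 37.0% and 6.38% against 33.9% as deposited.

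All 5 genes of the signal recognition particle rose on the deposited scale, with a median log2 change of 0.78, though Srp72 was below 0 after rescaling and with quantile normalization. On the deposited scale the rises were largest for the proteins of the Alu domain. This domain slows elongation while the ribosome is brought to the membrane. Srp14 had 205 and 215 FPKM in IP, against 120.1 and 118 FPKM in input, the highest level of all the ER genes in both groups (log2 change 0.81). Its partner Srp9 had 98.1 and 99.4 FPKM in IP, against 52.9 and 54.3 FPKM in input (log2 change 0.87, SE 0.047; limma, adjusted p = 3.66e-05). Both IP libraries lay far above both input libraries for each. Srp19, which helps assemble the S domain of the particle, had 62.7 and 68.4 FPKM in IP, against 37.5 and 38.01 FPKM in input (log2 change 0.78). The 2 large proteins of the S domain moved less on the deposited scale. After correction for transcript length the log2 change was 0.63 for Srp9, 0.45 for Srp14, 0.44 for Srp19, 0.46 for Srp68 and 0.28 for Srp72. With quantile normalization Srp19 (0.47) was above Srp14 (0.36). Srp68 had 46.4 and 44.5 FPKM in IP, against 33.5 and 30.9 FPKM in input, a rise of 0.49 that did not pass after rescaling (0.16). Srp72 had 32.1 and 33.6 FPKM in IP, against 27.4 and 29.2 FPKM in input (log2 change 0.21, SE 0.059; limma, adjusted p = 0.0196), which was -0.13 after rescaling and -0.019 with quantile normalization, and did not pass without input replicate 1 (0.16) or IP replicate 2 (0.18).

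In the translocation step 4 of 5 genes rose and 1 fell, with a median of 0.45, though Sec61a1 was below 0 after rescaling. The channel itself has a pore-forming alpha subunit and small beta and gamma subunits. Sec61b, the beta subunit, rose, with 36.6 and 35.2 FPKM in IP, against 19.7 and 23.8 FPKM in input (log2 change 0.71, SE 0.091; limma, adjusted p = 0.000724). Sec61a1, the pore, had 13.7 and 14.8 FPKM in IP, against 11.9 and 12.4 FPKM in input (log2 change 0.21, SE 0.069; limma, adjusted p = 0.0309), so the IP libraries stood just above the input libraries. That call was lost with quantile normalization (0.17) and without input replicate 1 (0.18), input replicate 2 (0.25) or IP replicate 2 (0.16), and the value was -0.11 after rescaling. Sec61g, the gamma subunit, had 2.90 and 2.83 FPKM in IP, against 2.10 and 1.32 FPKM in input, where the authors' limits lay 42.5% and 54.4% from the input values, and its call (0.53) was lost after rescaling (0.37), without the filter on low values and without input replicate 2 (0.32) or IP replicate 1 (0.51). Sec62 and Sec63 are membrane proteins that help post-translational import, and they moved in opposite directions. Sec62 had 33.5 and 34.1 FPKM in IP, against 24.7 and 24.2 FPKM in input (log2 change 0.45; 0.13 after rescaling, not past the threshold). Sec63 had 7.31 and 7.11 FPKM in IP, against 8.52 and 9.10 FPKM in input (log2 change -0.26, SE 0.071; limma, adjusted p = 0.0177), lower in both IP libraries than in both input libraries. The call on Sec63 was lost with quantile normalization (-0.17), after correction for transcript length (-0.0024) and without input replicate 2 (-0.21) or IP replicate 2 (-0.24).

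The translocon-associated protein complex sits beside the channel and helps some signal sequences to open it. Ssr2 and Ssr4, its beta and delta subunits, rose, and Ssr1 and Ssr3, the alpha and gamma subunits, did not pass. Ssr2 had 51.1 and 53.2 FPKM in IP, against 30.3 and 31.3 FPKM in input (log2 change 0.74, SE 0.052; limma, adjusted p = 7.55e-05). Ssr4 had 41.1 and 45.7 FPKM in IP, against 28.9 and 25.2 FPKM in input, a log2 change of 0.66. Groups did not overlap for either gene. Ssr3 had 28.1 and 29.1 FPKM in IP, against 27.3 and 28.5 FPKM in input, with overlapping groups and a 95% interval of the log2 change of -0.099 to 0.17; it was lower after rescaling (-0.30) and with quantile normalization (-0.18). Ssr1 had 10.7 and 12.1 FPKM in IP, against 10.05 and 10.1 FPKM in input (interval -0.028 to 0.35). It passed upward after correction for transcript length (0.61), which used its longest annotated transcript, of 9333 bases. Without IP replicate 1 its log2 change was 0.25.

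Signal peptidase cuts off the signal peptide. Of its 3 accessory subunits on the list, Spcs1 and Spcs2 rose and Spcs3 fell. Spcs1 had 83.7 and 86.4 FPKM in IP, against 55.4 and 52.1 FPKM in input (log2 change 0.65, SE 0.054; limma, adjusted p = 0.000125); its locus overlaps that of Glt8d1, which is listed at 0 in both IP libraries and at 6.30 and 6.49 FPKM in input, and the sources used here do not say how reads were divided between the 2 genes. Spcs2 had 22.3 and 23.6 FPKM in IP, against 15.3 and 15.9 FPKM in input, a log2 change of 0.53. Spcs3 had 14.4 and 14.8 FPKM in IP, against 17.6 and 16.9 FPKM in input (log2 change -0.23, SE 0.060; limma, adjusted p = 0.0149). Its fall was not past the threshold without input replicate 1 (-0.20), input replicate 2 (-0.25) or IP replicate 1 (-0.21), and it was larger after rescaling (-0.57).

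The 5 listed genes of oligosaccharyltransferase, the complex that attaches N-glycans to the entering chain, rose on the deposited scale, with a median of 0.43, though Rpn2 was below 0 after rescaling and with quantile normalization. Ostc, a small membrane subunit, had 40.4 and 46.2 FPKM in IP, against 21.96 and 19.5 FPKM in input (log2 change 1.03, SE 0.088; limma, adjusted p = 0.000142), the largest log2 change of the 47 genes. Dad1, another small subunit, had 139 and 143 FPKM in IP, against 87.4 and 78.4 FPKM in input (log2 change 0.76), behind Srp14 and Atf4 in level in both groups. Rpn1, Ddost and Rpn2 are larger subunits. Rpn1 had 23.2 and 25.2 FPKM in IP, against 17.3 and 18.2 FPKM in input (log2 change 0.43) and Ddost 32.7 and 32.1 FPKM in IP, against 24.6 and 25.6 FPKM in input (0.36), and neither passed after rescaling (0.10 and 0.031). Rpn2 had 28.1 and 30.02 FPKM in IP, against 24.01 and 26.2 FPKM in input (0.21), which was -0.12 after rescaling and -0.0069 with quantile normalization, and did not pass without input replicate 1 (0.15) or IP replicate 2 (0.16).

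The lectin chaperones hold newly glycosylated chains in the ER together with the disulfide isomerase ERp57. All 3 genes of this cycle rose on the deposited scale, but their values after rescaling, given beside each, were not past the threshold in limma. Calr, calreticulin, had 91.5 and 99.9 FPKM in IP, against 70.98 and 79.3 FPKM in input (log2 change 0.35, SE 0.073; limma, adjusted p = 0.00588; 0.0093 after rescaling). Canx, calnexin, had 41.1 and 46.00 FPKM in IP, against 35.9 and 37.9 FPKM in input (log2 change 0.23; -0.10 after rescaling and -0.042 with quantile normalization). Pdia3, which encodes ERp57, had 34.5 and 36.3 FPKM in IP, against 27.3 and 29.2 FPKM in input (log2 change 0.32, and -0.013 after rescaling). The call on Pdia3 was also lost with quantile normalization (0.084). In each of the 3 genes both IP values exceeded both input values. Calr did not pass without input replicate 1 (0.27) and was -0.019 with quantile normalization. Canx did not pass without input replicate 1 (0.19), input replicate 2 (0.27) or IP replicate 2 (0.15).

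Of the 9 genes of BiP, GRP94 and their cofactors, 5 rose, 1 fell and 3 did not pass, with a median of 0.34. Hspa5, which encodes BiP, the main Hsp70 chaperone of the ER, spans bases 34772090 to 34776529 of chromosome 2 in mm10. It had 44.6 and 52.8 FPKM in IP, against 35.6 and 39.2 FPKM in input, a mean of 48.7 ± 5.77 against 37.4 ± 2.54 (SD, n = 2 each; log2 change 0.37, SE 0.092; limma, adjusted p = 0.0111). The 2 groups did not overlap, but the call did not hold without input replicate 1 (0.30), after rescaling (0.039) or with quantile normalization (0.086). Hsp90b1, which encodes the Hsp90 chaperone GRP94, had 57.6 and 62.6 FPKM in IP, against 44.7 and 48.98 FPKM in input (log2 change 0.35, SE 0.069; limma, adjusted p = 0.00416; 0.019 after rescaling and 0.022 with quantile normalization, neither past the threshold). Hyou1, an exchange factor of BiP, had 17.02 and 18.5 FPKM in IP, against 12.6 and 15.1 FPKM in input (log2 change 0.34), and was not past the threshold after rescaling (0.019), with quantile normalization (0.24) or without input replicate 1 (0.22) or IP replicate 2 (0.28).

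Among the other cofactors, Manf and Sdf2l1 rose, Dnajc3 fell, and Dnajb9, Dnajb11 and Creld2 did not pass. Manf, an ER protein that binds BiP and is also released from cells, had 12.4 and 13.04 FPKM in IP, against 8.14 and 8.44 FPKM in input (log2 change 0.56, SE 0.067; limma, adjusted p = 0.000502). Sdf2l1, which works with BiP and Dnajb11, had 6.45 and 6.22 FPKM in IP, against 3.88 and 4.19 FPKM in input (log2 change 0.54). Both passed upward in all 15 alternatives. The J-domain proteins, which hand clients to BiP, did not pass upward in the main test. Dnajb11 had 13.4 and 14.6 FPKM in IP, against 13.1 and 11.9 FPKM in input (interval of the log2 change -0.027 to 0.35), and it passed with median-of-ratios size factors (0.21). Dnajb9 had 11.3 and 13.3 FPKM in IP, against 11.4 and 10.6 FPKM in input, with overlapping groups (interval -0.074 to 0.37; 0.26 without IP replicate 1). Dnajc3, which also encodes an inhibitor of the kinase PERK, fell, with 3.83 and 4.31 FPKM in IP, against 4.79 and 5.28 FPKM in input (log2 change -0.25, SE 0.090; limma, adjusted p = 0.0443). That call was lost in 7 alternatives, among them leaving out input replicate 1 (-0.31), input replicate 2 (-0.19) or IP replicate 1 (-0.18) and correction for transcript length (-0.057). Creld2, a protein induced by ER stress, had 5.08 and 5.17 FPKM in IP, against 5.26 and 4.03 FPKM in input and did not pass (interval -0.16 to 0.41), except with quantile normalization (0.36).

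Of the other 3 disulfide isomerase genes, 1 rose and 2 did not pass. Pdia4, which encodes ERp72, had 7.34 and 7.33 FPKM in IP, against 6.32 and 6.12 FPKM in input (log2 change 0.21, SE 0.070; limma, adjusted p = 0.0352), a call lost when any 1 of the 4 libraries was left out (log2 change 0.19 to 0.23) and with a value of -0.096 after rescaling. P4hb, which encodes protein disulfide isomerase itself, had 21.7 and 23.4 FPKM in IP, against 19.6 and 22.01 FPKM in input (interval -0.072 to 0.30). Pdia6 had 21.7 and 27.8 FPKM in IP, against 23.1 and 25.1 FPKM in input, with overlapping groups (interval -0.25 to 0.31). The IP replicates of Pdia6 differed by more than did its group means.

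**Figure D3:**
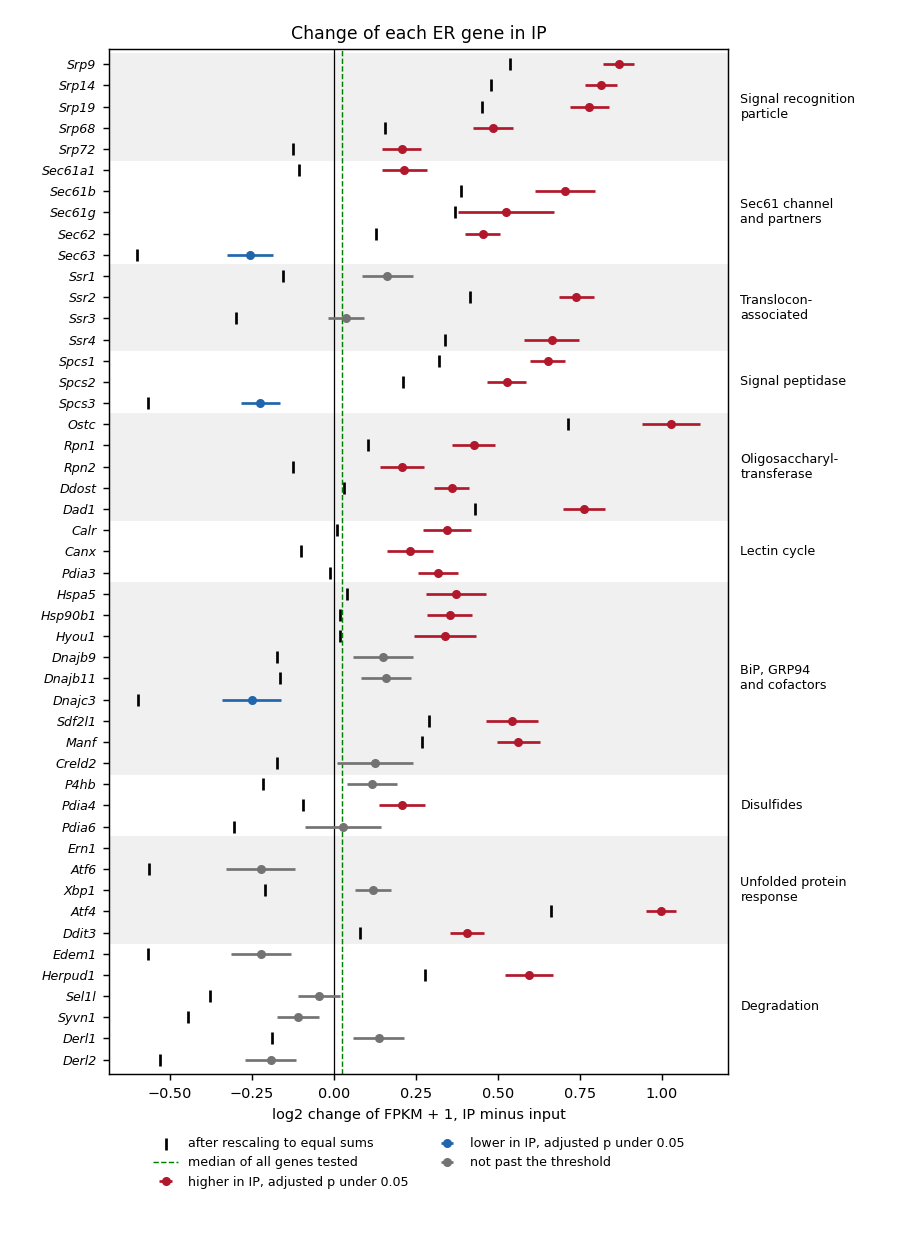
Log2 change of FPKM + 1, IP minus input, for the 47 ER genes tested, by step from top to bottom; points are limma estimates with bars of 1 SE, red for higher, blue for lower and grey for not past an adjusted p of 0.05, and black ticks give the change after rescaling to equal sums. Ticks lie below 0 for the red points of Srp72, Sec61a1, Rpn2, Canx, Pdia3 and Pdia4, and above 0 for the other red points; the dashed line marks the median of all genes tested, at 0.025.

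Many chaperone genes are known targets of the unfolded protein response through the ER stress response element (ERSE), a CCAAT box and the letters CCACG set 9 bases apart, to which ATF6 and NF-Y bind. The promoter windows of RefSeq (GRCm38.p6), from 250 bases before to 50 bases after each start site, held an entry for 38 of the 48 genes. This exact pattern, on either strand, was in the windows of 8 of the 38 genes (21.1%), against 37 of all 27025 genes with a window (0.137%). The 37 include these 8, and the other 29 were not on the list. Since chaperone genes, known targets of this element, were chosen for the list, the contrast is a description and not a test. The sites are shown because they are the element that 8 of the genes share, with the 2 fixed boxes in capitals and each site written in the direction of the motif.
Calr chr8:84847075-84847093 (+ strand): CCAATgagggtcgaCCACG
Canx chr11:50325800-50325818 (- strand): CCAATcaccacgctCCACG
Creld2 chr15:88819520-88819538 (- strand): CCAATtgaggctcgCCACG
Dnajc3 chr14:118937827-118937845 (+ strand): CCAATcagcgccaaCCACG
Hsp90b1 chr10:86705533-86705551 (+ strand): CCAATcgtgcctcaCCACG
Hsp90b1 chr10:86705638-86705656 (- strand): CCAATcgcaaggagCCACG
Hspa5 chr2:34772025-34772043 (+ strand): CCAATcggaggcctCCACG
Pdia6 chr12:17266491-17266509 (+ strand): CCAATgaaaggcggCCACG
Syvn1 chr19:6046532-6046550 (+ strand): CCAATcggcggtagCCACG

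Of these genes, Hspa5, Hsp90b1, Dnajc3 and Creld2 belong to the BiP and GRP94 group, Calr and Canx to the lectin cycle, Pdia6 to the disulfide isomerases and Syvn1 to degradation. Hsp90b1 held 2 sites. The windows of Hspa5 (chr2:34771840-34772139, plus strand) and Hsp90b1 (chr10:86705395-86705694, minus strand) are given on the strand of the gene with the boxes in capitals, since they encode BiP and GRP94.
Hspa5: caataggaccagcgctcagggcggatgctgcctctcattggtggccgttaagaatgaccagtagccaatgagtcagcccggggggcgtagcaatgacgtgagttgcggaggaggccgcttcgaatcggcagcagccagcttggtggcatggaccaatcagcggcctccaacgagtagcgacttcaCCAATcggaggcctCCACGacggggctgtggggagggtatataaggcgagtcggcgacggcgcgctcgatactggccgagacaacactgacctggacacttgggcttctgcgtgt
Hsp90b1: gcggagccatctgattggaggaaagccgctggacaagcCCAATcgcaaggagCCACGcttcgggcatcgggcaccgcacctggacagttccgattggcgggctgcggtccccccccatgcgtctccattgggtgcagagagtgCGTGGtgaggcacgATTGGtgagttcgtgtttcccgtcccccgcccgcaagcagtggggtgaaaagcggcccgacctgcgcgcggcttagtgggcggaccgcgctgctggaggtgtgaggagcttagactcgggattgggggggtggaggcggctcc

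The 8 genes with the pattern had a median log2 change of 0.18 (range -0.25 to 0.37), with 4 higher, 1 lower and 3 not past the threshold. The 29 tested genes with a window and no such pattern had a median of 0.36 (range -0.26 to 1.00), with 19 higher and 1 lower. Genes with the pattern also had longer coding sequences, with a median of 1643 bases against 1001 for those without it. Another element of this response, the letters TGACGTGG, was in the window of 0 of the 38 genes and of 0.714% of all genes, and the ATF4-type element TGATGNAAN was in 1 of the 38, Herpud1, and in 4.50% of all genes; a match or its absence describes only these letters in these windows.

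Among the sensors and transcription factors of the unfolded protein response, the factor Atf4 stood apart. Atf4, a transcription factor whose mRNA carries upstream open reading frames and which drives amino acid and stress response genes, spans bases 80255184 to 80257545 of chromosome 15 in mm10. It had 199.5 and 206 FPKM in IP, against 100.00 and 102 FPKM in input, the second highest level of the ER genes in both groups (mean 203 ± 4.37 against 101 ± 1.38, SD, n = 2 each; log2 change 1.00, SE 0.046; limma, adjusted p = 2.61e-05). Ddit3, which encodes the factor CHOP, had 37.3 and 38.6 FPKM in IP, against 28.5 and 28.2 FPKM in input (log2 change 0.41), a call lost after rescaling (0.078) and after correction for transcript length (0.066); its locus overlaps Mars, at 17.1 and 16.5 FPKM in IP and 15.4 and 15.2 FPKM in input.

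The other 3 genes of this group did not pass upward on the deposited scale. Xbp1, whose mRNA is spliced by IRE1 to give an active factor, had 21.99 and 21.6 FPKM in IP, against 20.3 and 19.7 FPKM in input (interval of the log2 change -0.014 to 0.25; adjusted p = 0.0931). It passed upward with median-of-ratios size factors (0.18) and downward after rescaling (-0.21), so its direction was not settled, and these gene-level values do not separate the spliced form. Atf6, a membrane-bound factor that is cut free under stress, had 5.76 and 4.70 FPKM in IP, against 6.54 and 5.96 FPKM in input (log2 change -0.22, SE 0.11; limma, adjusted p = 0.101). Both IP values of Atf6 were below both input values, and it passed downward with the replicate number as a block (-0.22), after rescaling (-0.57) and without IP replicate 1 (-0.35). Ern1, which encodes the sensor IRE1, had 0.334 and 0.350 FPKM in IP, against 0.982 and 1.10 FPKM in input, the lowest level of the list, and was left out of the test by the filter of 1 FPKM in 2 libraries. Without the filter its log2 change on the log2(FPKM + 1) scale was -0.61 (SE 0.059; limma, adjusted p = 0.00232), and its mean FPKM in IP was 0.328 of that in input.

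In the degradation step 1 of 6 genes rose and 5 did not pass, with a median of -0.078. Herpud1, which encodes an ER stress-induced membrane protein that organises the retrotranslocation machinery, had 26.7 and 25.9 FPKM in IP, against 18.2 and 16.02 FPKM in input (log2 change 0.59, SE 0.074; limma, adjusted p = 0.000618). The ubiquitin ligase of this pathway is Syvn1 (HRD1), with Sel1l as its partner and the Derlins as membrane components. Sel1l had 16.1 and 16.2 FPKM in IP, against 16.1 and 17.3 FPKM in input, with overlapping groups (interval -0.20 to 0.11); it was lower after rescaling (-0.38) and higher after correction for transcript length (0.23). Syvn1 had 10.5 and 10.5 FPKM in IP, against 11.7 and 11.1 FPKM in input (log2 change -0.11, adjusted p = 0.166), and its locus overlaps that of Mrpl49, at 53.8 and 56.1 FPKM in IP and 26.8 and 26.2 FPKM in input. Edem1, which removes mannose from chains bound for degradation, had 2.08 and 2.07 FPKM in IP, against 2.42 and 2.77 FPKM in input (log2 change -0.22, adjusted p = 0.0672). Derl2 had 3.76 and 3.85 FPKM in IP, against 4.60 and 4.39 FPKM in input (-0.19, adjusted p = 0.0628), with a locus that overlaps Mis12, and Derl1 had 13.1 and 14.8 FPKM in IP, against 12.7 and 12.4 FPKM in input (0.14, adjusted p = 0.158; 0.22 without IP replicate 1). Both IP values lay below both input values for Syvn1, Edem1 and Derl2, and above them for Derl1, where these shares were 41.4% and 45.0% of all genes tested. After rescaling Syvn1, Edem1 and Derl2 passed downward (-0.45, -0.57 and -0.53), where 53.8% of all genes did. Edem1 and Derl2 also passed downward with eBayes without a trend.

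Further genes of the pathway were read from a list by step, on the deposited scale alone. Their calls were not checked under another scaling. Of 100 found and 96 tested, 47 were higher, 14 lower and 35 not past the threshold, with a median of 0.18, where 37.0% and 33.9% of all genes were higher and lower. In targeting, 4 of 5 rose, led by Srprb, a subunit of the receptor of the signal recognition particle, at 13.1 and 14.2 FPKM in IP, against 8.998 and 9.44 FPKM in input. The near-identical copies Srp54a, Srp54b and Srp54c, named for this reason alone, share reads and are uncertain one by one. In translocation and membrane insertion, 12 of 18 rose and 2 fell. That list also held the signal peptidase genes Sec11c, which rose (log2 change 0.61), and Sec11a, which did not pass (-0.16). Both are named for this reason alone. Asna1, the ATPase that delivers tail-anchored proteins, rose most, at 157 and 149 FPKM in IP, against 78.6 and 78.3 FPKM in input (log2 change 0.95). The second alpha subunit of the channel, Sec61a2, was the largest fall of that step, at 11.6 and 11.8 FPKM in IP, against 21.7 and 20.4 FPKM in input (log2 change -0.80, SE 0.062; limma, adjusted p = 0.000105). The pair of alpha subunits thus stood in different orders: Sec61a1 was above Sec61a2 in FPKM in IP and below it in input.

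In glycosylation 14 of 30 other genes rose and 7 fell, where 37.0% of all genes tested were higher and 33.9% lower. Ost4, a very small subunit of oligosaccharyltransferase, rose most, at 97.5 and 101 FPKM in IP, against 55.4 and 43.4 FPKM in input (log2 change 1.01). Magt1, an accessory subunit, fell most, at 0.282 and 0.275 FPKM in IP, against 1.83 and 1.74 FPKM in input (log2 change -1.12), while its paralog Tusc3 had 84.9 and 80.9 FPKM in IP, against 71.5 and 75.3 FPKM in input (log2 change 0.17). Outside the 5 listed genes, the catalytic subunits of the complex did not rise: they were Stt3a at 5.29 and 4.53 FPKM in IP, against 5.25 and 5.53 FPKM in input, not past the threshold, and Stt3b at 11.05 and 8.83 FPKM in IP, against 12.3 and 12.4 FPKM in input (log2 change -0.29, adjusted p = 0.0444). Tusc3 and both catalytic subunits were named after their values were seen.

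Of 18 other folding genes tested, 6 rose and 3 fell. Beside this and the later counts by step stand the shares of all genes tested, 37.0% higher and 33.9% lower. Fkbp2, a prolyl isomerase of the ER, rose most, at 118 and 118 FPKM in IP, against 76.97 and 74.1 FPKM in input, and Dnajc1, a membrane-bound J-domain protein, fell most, at 0.789 and 0.589 FPKM in IP, against 3.83 and 2.14 FPKM in input. Of 8 further genes of the unfolded protein response tested, 4 rose. The largest rise was that of Chac1, a glutathione-degrading enzyme induced through ATF4, at 22.4 and 25.8 FPKM in IP, against 7.26 and 8.19 FPKM in input (log2 change 1.52, SE 0.093; limma, adjusted p = 4.84e-05). Eif2ak3, which encodes the sensor PERK, had 4.28 and 4.13 FPKM in IP, against 3.45 and 3.76 FPKM in input and did not pass; it too was named after its values were seen. Of 17 other degradation genes tested, 7 rose and 2 fell, led by Rnf5, a ubiquitin ligase, at 76.5 and 77.4 FPKM in IP, against 50.2 and 52.4 FPKM in input, and Edem2, a mannosidase-like protein, at 4.47 and 4.66 FPKM in IP, against 6.02 and 6.33 FPKM in input.

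Genes with short coding sequences had higher log2 changes than genes with long ones, among the ER genes and among all genes. Across the 47 ER genes tested, the log2 change and the longest annotated coding length (GENCODE M21) had a Spearman correlation of -0.55 and a Pearson correlation with log2 length of -0.55. For the length of the longest annotated transcript they were -0.65 and -0.70. Over all 11980 genes tested with a coding length, the Spearman correlation with coding length was -0.36. These are descriptions across genes, which share the same 4 libraries and are not independent replicates.

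With coding sequences under 600 bases, 12 of 14 ER genes were higher and the median log2 change was 0.68, against 62.5% higher and a median of 0.41 for all genes of that size. From 600 to 1500 bases, 8 of 16 were higher (median 0.19), against 46.0% and a median of 0.15 for all genes. At 1500 bases and over, 10 of 17 were higher and 2 lower (median 0.21), against 22.5% higher, 45.4% lower and a median of -0.16 for all genes of that size. After correction for transcript length the medians of the ER genes in these classes were 0.42, 0.25 and 0.23. For all genes they were 0.28, 0.13 and 0.015. That correction left 30 of 47 higher and 1 lower, Spcs3 at -0.16, where 39.4% of all genes were higher and 28.1% lower.

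**Figure D4:**
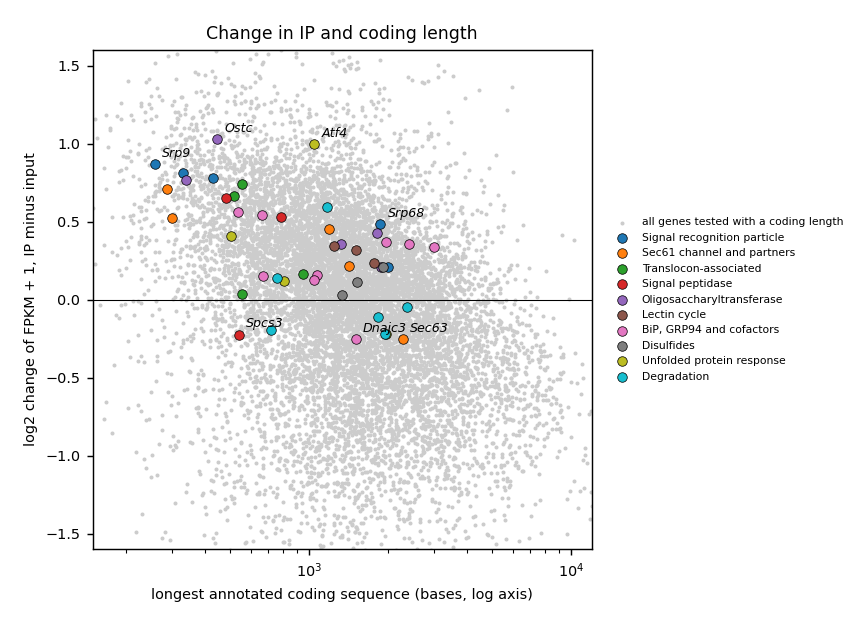
Log2 change in IP against the longest annotated coding sequence (log axis) for the 47 ER genes tested, coloured by step, over all genes tested with a coding length in grey, some of which lie beyond the axis limits. The small subunits Ostc and Srp9 sit at the upper left, Dnajc3 and Sec63 below 0 at the right, and Atf4 above the other ER genes of about its length.

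The direction of the difference between the 2 pools of mice was counted after the values were seen. Libraries were matched to pools by the replicate number in the titles, and the source description of 1 IP library gives another number. Replicate 2 exceeded replicate 1 in both IP and input for 22 of the 47 ER genes tested (46.8%), where this held for 24.1% of all genes, and the opposite held for 6 (12.8%), where it did for 29.0% of all genes. By step, these 22 were 3 of 5 in targeting, 1 of 5 in translocation, 3 of 4 in the translocon-associated complex, 1 of 3 in signal peptidase, 2 of 5 in oligosaccharyltransferase, 3 of 3 in the lectin cycle, 5 of 9 in the BiP and GRP94 group, 2 of 3 disulfide isomerases, 1 of 4 in the unfolded protein response and 1 of 6 in degradation. For Hspa5 the log2 difference, replicate 2 minus replicate 1, was 0.24 in IP and 0.13 in input. For Hyou1 it was 0.11 and 0.24, for Calr 0.13 and 0.16, and for Pdia6 0.34 and 0.12. Of the 8 genes with an ERSE, 6 were higher in replicate 2 in both groups, against 12 of the 30 with a window and without it. The 12 include Ern1, which was not tested. Among tested genes outside the list that had an ERSE, 4 of 7 were higher in replicate 2 in both groups.

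The authors' confidence limits of the 2 IP libraries lay apart for 7 of the 47 ER genes tested (14.9%; Ssr1, Calr, Canx, Hspa5, Hsp90b1, Pdia6 and Atf6), where they did for 12.3% of the 12373 genes tested with 1 entry. Those of the 2 input libraries lay apart for 3 (6.38%; Calr, Hsp90b1 and Hyou1), where they did for 8.74% of these genes. Between IP and input the limits lay apart in both pools for 31 of the 47 (66.0%), against 61.2% of these genes. These shares were near those of all genes. Each pool gave 1 library per group, so the difference between pools has no test. Ttr, a marker of the choroid plexus, also separated the pools, at 10.4 and 1.31 FPKM in IP, against 172 and 9.66 FPKM in input, higher in replicate 1 in both groups; its part in the ER gene values was not tested.

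**Figure D5:**
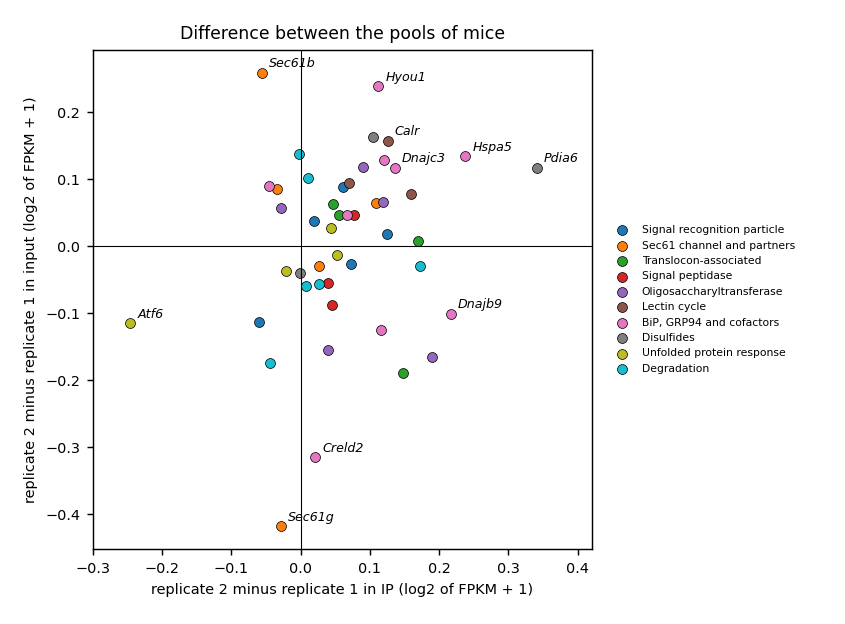
Difference between the replicates of IP (horizontal) and of input (vertical), each as replicate 2 minus replicate 1 on the log2 scale of FPKM + 1, for the 47 ER genes tested, coloured by step. Hspa5, Hyou1, Calr, Dnajc3 and Pdia6 lie in the upper right, higher in replicate 2 in both groups, Atf6 lies in the lower left, and Sec61g and Creld2 lie low, with a larger difference between the input libraries than between the IP libraries.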

How the data were processed

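The files are gene-level FPKM for each library with confidence limits, made by the authors with Cufflinks after TopHat alignment to mm10 (UCSC annotation from iGenomes), per the series' design text, the submitters' processing notes and the file headers; versions, strand use and any scaling between libraries are not given in the sources used here. Libraries were made with a TruSeq RNA kit and read as 100 bp single ends. Groups and replicate numbers came from the titles; 1 IP library's source description gives another number. Entries with a failed status (8) or a small RNA name (1280) were left out, and the highest entry of a symbol was kept. The 12416 genes that reached 1 FPKM in 2 or more libraries were tested on log2(FPKM + 1), which understates changes of low genes, in limma 3.58.1 under R 4.3.3 (lmFit, eBayes with trend), two-sided, Benjamini-Hochberg adjusted, with a threshold of 0.05. Folds are ratios of mean FPKM. The p-values rest on 2 pools a group. The test was tested on simulated data. FPKM are not counts, so no count test was used.

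The design text gives each IP its own input, so the numbers pair the samples; across genes, the deviations of same-numbered IP and input libraries from their group means had a correlation of 0.163. The ER genes, lists and tests were chosen with earlier results of these data known. All 48 genes are named; of the other pathway genes, the largest rise and fall past the threshold of each step, with exceptions marked where named. Alternatives were pseudocounts of 0.1 and 5, no filter or FPKM of at least 5, 3 other scalings, a replicate block, eBayes without trend, a loess correction for transcript length (GENCODE M21, 99.3% of genes matched), summed entries and each library left out. Transcript length was that of the longest annotated transcript of a gene, protein-coding where it had one, which need not be the form measured here. Protein sequences were not used here. Tables and figures used Python 3.11.15, pandas 2.3.3 and matplotlib 3.10.9.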

Additional observations from a re-analysis of the deposited data

How the results depend on the processing

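After rescaling to equal sums, 14 ER genes were higher and 10 lower (2226 and 6684 of all genes), with a median of 0.0093 for the ER genes; 10 more lost their call and 8 changed sign with a call in at least 1 of the fits, namely Srp72 (-0.13), Sec61a1 (-0.11), Ssr3 (-0.30), Rpn2 (-0.12), Canx (-0.10), Pdia3 (-0.013), Pdia4 (-0.096) and Xbp1 (-0.21). With quantile normalization the median was 0.17 and Srp72 (-0.019), Ssr3 (-0.18), Rpn2 (-0.0069), Calr (-0.019) and Canx (-0.042) changed sign. Correction for transcript length gave a median of 0.28, with 1 gene lower and Sel1l at 0.23. The median was 0.39 with median-of-ratios size factors and 0.27 with a pseudocount of 5. A filter at FPKM of 5, with fewer genes tested, left 4207 of all genes higher and 2437 lower. Without trend, eBayes left 5 ER genes lower. With 1 library left out, the median was 0.27 to 0.36 and the ER genes lower numbered 0 to 2 (limma; the 0, without input replicate 2, stands beside 1 at an unadjusted p of 0.05). The replicate block gave 30 higher and 4 lower, adding Atf6 (-0.22), and changed no other ER gene's call. The cause of these differences was not tested. Confidence limits of over 40% of the value at Sec61g in input limit what can be said of it.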
